A study of Mus musculus with 16 samples.

Results

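The Krüppel-like factors described here are the 9 genes Klf2, Klf3, Klf4, Klf5, Klf6, Klf9, Klf10, Klf13 and Klf16, each taken as the row of the count table whose Ensembl identifier carries that mouse symbol. They are 9 of 52636 gene identifiers in the table, and all 9 were among the 12215 genes that passed the filter on low counts and were tested. RNA was measured in 16 libraries of CRAFR26, a mouse embryonic stem cell line carrying a c-RAF kinase construct that activates the MEK-ERK pathway when 4-hydroxytamoxifen (4OHT) is added. All 4 groups had been switched for 48 h from the MEK inhibitor of their maintenance medium to PD17 (250 nM), which blocks FGF receptors. The 0h group received nothing further, the 2h and 4h groups received 250 nM 4OHT for 2 h or 4 h, and the rev group received 4OHT for 4 h and then a MEK inhibitor for 2 h more. Each group held 4 libraries, 2 replicates from each of clone 4 and clone 8, so the line was represented by 2 clones. The labels do not say that the replicates of a clone were separate cultures, and p-values measure the spread between these libraries, which may be technical. No library came from cells given the 4OHT vehicle or from cells given 4OHT for 6 h without the MEK inhibitor, so that effects of vehicle and of elapsed time cannot be told apart from those of the treatments.

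Krüppel-like factors are transcription factors whose C-terminal zinc fingers bind GC-rich and CACCC sequences, and they share this DNA-binding region with the SP proteins. In mouse embryonic stem cells Klf2, Klf4 and Klf5 are best known: they act beside Oct4, Sox2 and Esrrb to hold the naive state, and they can stand in for each other in part. ERK is known to phosphorylate Klf2 and Klf4 proteins and to promote their degradation, a step that counts of RNA do not measure. Klf3 is a repressor that recruits the CtBP corepressors, while Klf9, Klf10, Klf13 and Klf16 recruit the SIN3 corepressor complex.

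Total counts per library ran from 2172651 to 12680303 with a median of 6502783, and a member received 23 to 2883 counts per library, with Klf6 the lowest at 23 to 189. Levels are given as CPM, read counts scaled to a common library total with TMM factors (0.463 to 1.47), and 3 counts, taken as the detection floor, stood for 0.213 to 1.35 CPM depending on the library, for counting error only. The 8 most abundant gene models took 42.0% to 80.4% of a library's counts, with group means of 60.7% (0h), 58.5% (2h), 54.1% (4h) and 65.9% (rev). Dusp6, an ERK target used to check the induction, averaged 1.25 ± 0.448 CPM (SD, n = 4) before induction, 30.2 ± 1.92 and 55.2 ± 10.7 after 2 h and 4 h of it, and 1.59 ± 0.667 in rev. All 8 embryonic stem cell markers stood above the floor in every library, at 1637 to 2235 CPM in sum. The trophoblast list summed to 4.34 to 9.51 CPM at 0h and 10.5 to 17.9 CPM at 4h with 3 of 5 markers above the floor in every 4h library, and stood at 8.24 to 12.7 CPM at 2h and 9.61 to 16.1 CPM in rev. The neural list of 4 markers summed to 1.49 to 3.70 CPM at 0h, 2.77 to 3.62 CPM at 2h, 4.21 to 4.79 CPM at 4h and 4.37 to 7.60 CPM in rev, so its 4h and rev libraries lay above all 0h libraries, as did those of the trophoblast list. Over all libraries fibroblast markers summed to 2.44 to 8.56 CPM (Dcn at 0) and primitive endoderm markers to 3.26 to 7.21 CPM. The part of these small amounts in the results below was not tested.

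After 2 h of ERK activation the transcripts of Klf3, Klf5, Klf9, Klf10 and Klf16 were higher than at 0h. No member was called lower over both clones together, while Klf4 was called lower within clone 4, as given below. After 2 h of MEK inhibition Klf2, Klf3 and Klf4 were higher and Klf5 was lower than at 4h. In the edgeR quasi-likelihood test with Benjamini-Hochberg adjustment over all tested genes, a gene was called at an adjusted p under 0.05. At 2h against 0h, 5 members were called higher and 0 lower, where 11.4% of all tested genes were called higher and 9.68% lower. A sixth member, Klf6, was lower at an unadjusted p under 0.05 and was not called, and DESeq2 also called 0 members lower. With the share of the 8 most abundant models as a covariate, Klf6 was called lower (-0.32, adjusted p = 0.0490). At 4h against 0h, 5 members were higher and 1 lower (17.2% and 16.8% of all genes). Between 2h and 4h, 1 member was higher and 1 lower (3.8% and 3.52% of all genes). From 4h to rev, 3 members were higher and 1 lower (7.93% and 8.43% of all genes), and in rev against 0h, 6 were higher and 1 lower (12.4% and 9.86% of all genes). The median log2 fold change of the 9 members was 0.37 at 2h and 0.24 at 4h against 0h, -0.12 from 2h to 4h, 0.16 from 4h to rev and 0.41 in rev against 0h. The median over all tested genes lay between -0.02 and 0.01 in these comparisons. The 5 comparisons share libraries, so a member's values in several of them are not separate evidence. Only Klf3 in rev against 0h reached 2-fold.

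**Figure D1:**
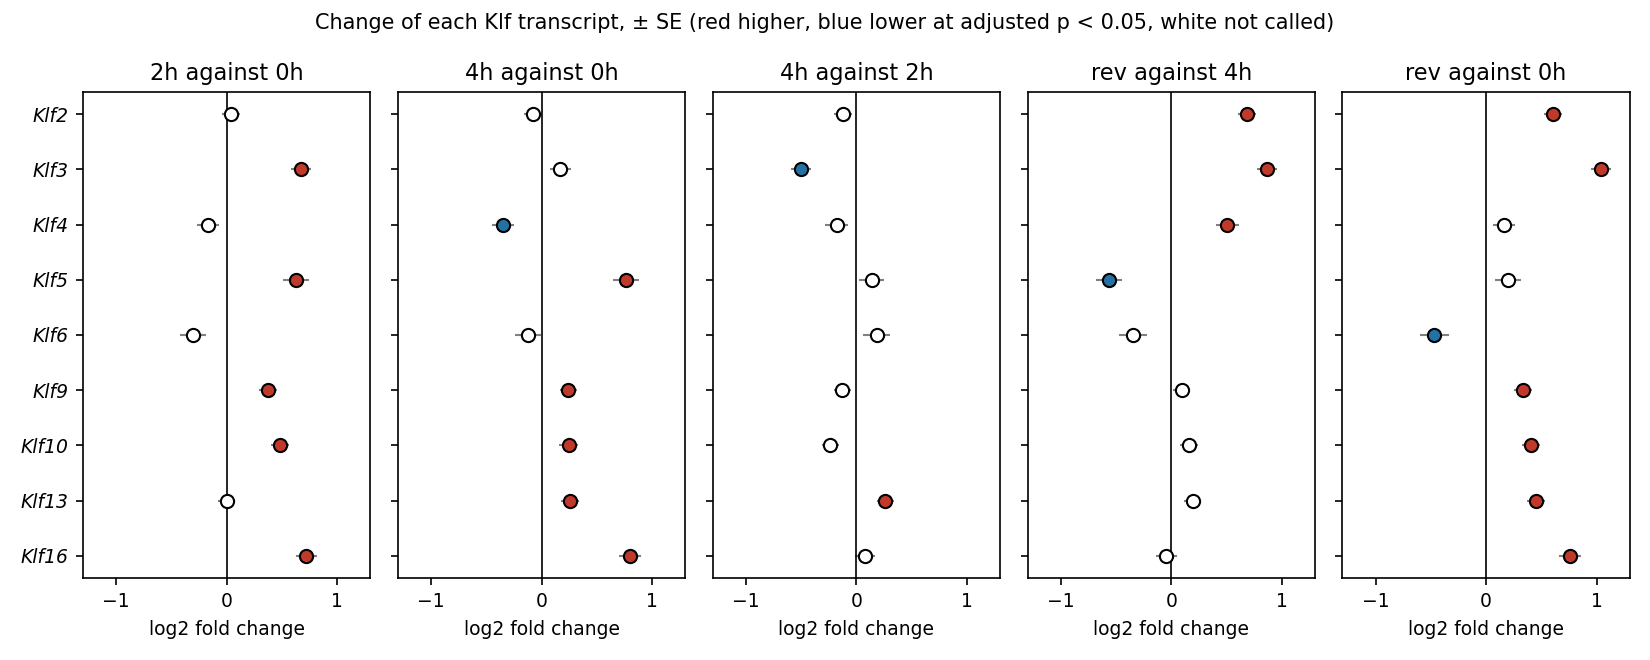
Log2 fold change (x axis) of each member (rows) in the 5 comparisons (panels), with the SE as a bar; red points were called higher, blue points lower and white points were not called at an adjusted p under 0.05. Klf16 lies at 0.72 at 2h, 0.80 at 4h and 0.76 in rev against 0h, while Klf2, Klf3 and Klf4 lie to the right and Klf5 to the left of 0 in rev against 4h.

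The composition of the libraries bears on these counts. Scaled by library size alone, without a factor for the abundant models, the median of all genes moved to -0.41 from 4h to rev and to -0.32 in rev against 0h, and 0 members were called higher in each of 2h against 0h and rev against 4h. From 4h to rev it left Klf2 at 0.24 (adjusted p = 0.433), Klf3 at 0.45 (adjusted p = 0.147) and Klf4 at 0.11 (adjusted p = 0.741), none of them called, and Klf5 at -0.98 (adjusted p = 0.00156) and Klf6 at -0.76 (adjusted p = 0.0307), both called lower. Klf9, Klf10 and Klf13 changed sign there, to -0.33, -0.27 and -0.24, and were not called under either scaling. At 2h the 5 members called under TMM scaling stood at 0.36 to 0.72 under library size alone, with SEs of about 0.23 and adjusted p-values of 0.0770 to 0.647. Set against the median of all genes under the same scaling, the changes from 4h to rev were 0.64 for Klf2, 0.86 for Klf3, 0.51 for Klf4 and -0.58 for Klf5, against 0.67, 0.86, 0.49 and -0.58 under TMM scaling. As another scaling moves all genes by nearly the same amount, this likeness follows from the subtraction and supports nothing. Rises and falls from 4h to rev are therefore given relative to the bulk of genes. The 8 abundant models took a larger mean share in rev than at 4h, and with that share as a covariate 3 members were again higher and 1 lower from 4h to rev.

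Per unit of transcript length, Klf2 was the most abundant of the 9 in every group. Levels between genes were compared as CPM per kilobase of annotated exon. At 0h, Klf2 stood at 97.5 ± 11.7 CPM per kilobase (SD, n = 4), followed by Klf4 at 33.7 ± 6.69, Klf5 at 21.2 ± 4.50, Klf9 at 15.3 ± 1.69, Klf10 at 12.7 ± 0.990 and Klf16 at 9.65 ± 1.59. Klf13 at 6.65 ± 0.375, Klf3 at 3.99 ± 0.428 and Klf6 at 3.74 ± 0.410 CPM per kilobase came last. The library ranges of Klf4 and Klf5, of Klf9 and Klf10, of Klf10 and Klf16 and of Klf3 and Klf6 overlapped at 0h. Within a library the order of each of these pairs was the same in 4 of 4 libraries with this length, whereas with the longest transcript Klf4 lay above Klf5 in 2 of 4 and Klf9 above Klf10 in 1 of 4. Klf2 made up 47.7% ± 2.08 of the summed member level per kilobase before induction, 43.1% ± 1.44 after 2 h and 41.7% ± 5.08 after 4 h of it, and 52.6% ± 1.92 in rev. The sum over the 9 genes ranged over libraries from 180.4 to 229 CPM per kilobase at 0h, 204 to 265 at 2h and 203 to 239 at 4h. In rev it ranged from 259 to 302 under TMM scaling; under library size alone the mean sum was 237 ± 68.2 CPM per kilobase in rev and 249.7 ± 37.2 at 4h (SD, n = 4), so its order between these groups depends on the scaling. With the longest transcript in place of all annotated exons, Klf3, whose exon length fell from 11243 to 5221 bases, moved from 8 to 7 in the order at 0h, and Klf10 moved ahead of Klf9.

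**Figure D2:**
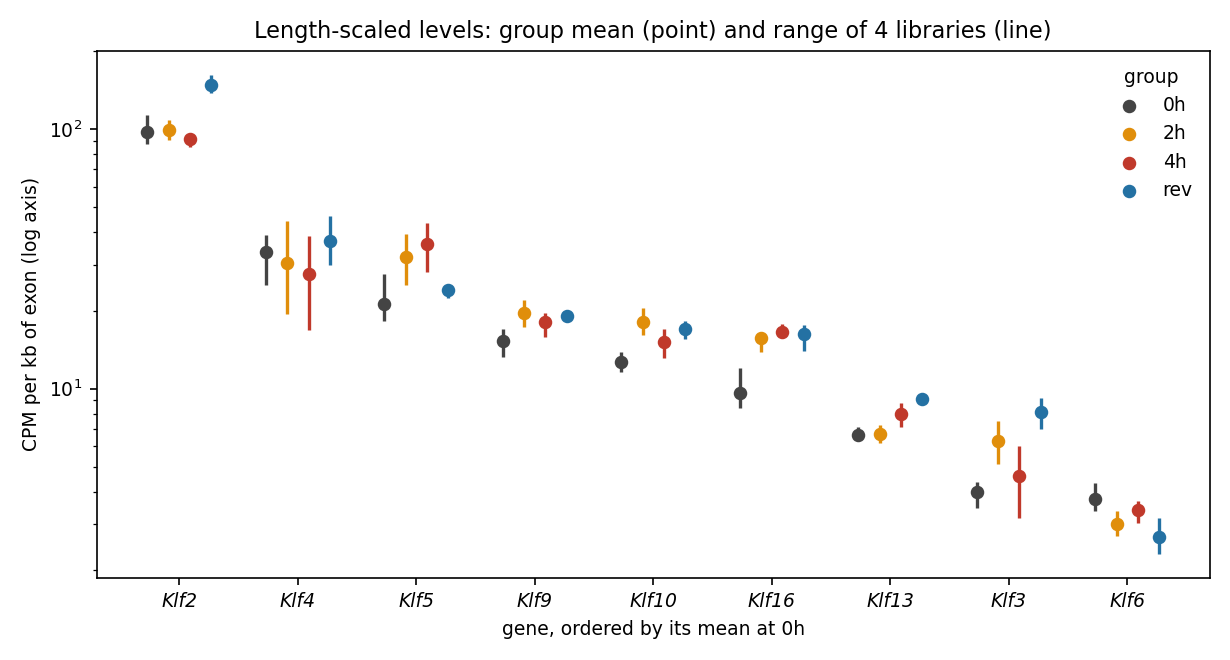
Level per kilobase of exon (y axis, log scale) of the 9 members ordered by their 0h mean; points are means of 4 libraries and lines the range over them, coloured by group. Klf2 lies at the top in all 4 groups, and with this length the mean of Klf5 lies below that of Klf4 at 0h and in rev.

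Among the naive-state factors, Klf2 did not respond to ERK activation by any change that passed the test, and it was higher once MEK was inhibited. Klf2 (ENSMUSG00000055148, chromosome 8, 72319033 to 72321656 on the plus strand of GRCm38) measured 210.5, 162, 180.3 and 168 CPM at 0h, in the order clone 4 replicates 1 and 2 and clone 8 replicates 1 and 2, which is kept for every gene below. It measured 172, 168, 193 and 201 CPM at 2h and 177, 176, 158 and 165 CPM at 4h. In rev it measured 254, 279, 264 and 299.7 CPM. All 4 rev libraries lay above every other library, whereas 0h, 2h and 4h overlapped. The log2 fold change was 0.04 (SE 0.08, adjusted p = 0.756) at 2h and -0.08 (SE 0.08, adjusted p = 0.471) at 4h against 0h. From 4h to rev it was 0.69 (SE 0.08, adjusted p = 1.09e-07), and against 0h it was 0.61 (SE 0.08, adjusted p = 1.35e-06). Under library size alone neither was called, at 0.24 (adjusted p = 0.433) from 4h to rev and 0.26 (adjusted p = 0.459) in rev against 0h. In bulk RNA, more cells carrying a transcript and more transcript per cell cannot be told apart, here or in any result below.

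Klf4, a reprogramming factor and a target of LIF and Stat3 signalling in these cells, fell at 4h and was higher again in rev, and its level differed between the clones. Klf4 (ENSMUSG00000003032, chromosome 4, 55527143 to 55532466, minus strand) measured 96.1, 76.8, 119 and 119 CPM at 0h and 63.6, 59.1, 113 and 135 CPM at 2h. It measured 51.4, 55.7, 112 and 118 CPM at 4h and 91.0, 91.9, 142 and 129.8 CPM in rev. The clone 8 libraries lay above the clone 4 libraries in all 4 groups, so the groups overlapped over both clones. Within each clone both 4h libraries lay below both 0h and both rev libraries, while 0h and rev overlapped in clone 4, and 2h overlapped the other 3 groups in clone 8. With clone in the model, the log2 fold change at 2h was -0.17 (SE 0.10, adjusted p = 0.240), and Klf4 was lower at 4h, by -0.35 (SE 0.10, adjusted p = 0.00730). At 2h Klf4 was called lower within clone 4 (-0.46, SE 0.12, adjusted p = 0.00930) and not within clone 8 (0.06, SE 0.10, adjusted p = 0.721). That difference between the clones did not pass the test (0.52, SE 0.15, adjusted p = 0.207). By clone the 4h value was -0.68 (SE 0.11) in clone 4 and -0.05 (SE 0.10) in clone 8, a difference that did not pass the test (0.63, SE 0.15, adjusted p = 0.0595). From 4h to rev Klf4 was higher by 0.51 (SE 0.10, adjusted p = 4.66e-04), and rev against 0h gave 0.16 (SE 0.10, adjusted p = 0.256). Without clone in the model the 4h change was -0.31 (adjusted p = 0.453) and the rev against 4h change 0.44 (adjusted p = 0.389), and neither was called. With library size alone as the scaling they were -0.26 (adjusted p = 0.580) and 0.11 (adjusted p = 0.741). Without 0h clone 4 replicate 1, Klf4 was called higher in rev against 0h, at 0.27 (adjusted p = 0.0333).

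Klf5, which is needed in the early embryo for trophectoderm and inner cell mass, went the other way: it rose under ERK activation and fell when MEK was inhibited. Klf5 (ENSMUSG00000005148, chromosome 14, 99298691 to 99315036, plus strand) measured 144, 106, 95.2 and 94.6 CPM at 0h and 152, 130.5, 181 and 205 CPM at 2h. It measured 146, 170.3, 205 and 227 CPM at 4h and 116, 131, 123 and 131 CPM in rev. Clone 4 replicate 1 at 0h stood far above the other 0h libraries and within reach of the lowest 4h library. Still, 0h and 4h did not overlap, nor did 4h and rev. The 0h and 2h libraries did overlap, as the lowest 2h library lay at 130.5 CPM. Klf5 was higher by 0.62 at 2h (SE 0.12, adjusted p = 1.81e-04) and by 0.76 at 4h (SE 0.12, adjusted p = 4.36e-06) against 0h. By clone the 2h rise was called in clone 8 (1.02, SE 0.11, adjusted p = 2.28e-08) and not in clone 4 (0.21, SE 0.12, adjusted p = 0.332). Klf5 was lower in rev than at 4h by -0.56 (SE 0.12, adjusted p = 8.12e-04), and rev against 0h gave 0.20 (SE 0.12, adjusted p = 0.240). Without the 0h library of clone 4 replicate 1, rev against 0h was called for Klf5 at 0.38 (adjusted p = 0.00617).

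The ratio of Klf4 to Klf5 per kilobase was lower at 4h than at 0h or in rev. It averaged 1.66 ± 0.553 before induction, 0.920 ± 0.206 after 2 h and 0.745 ± 0.194 after 4 h of it, and 1.55 ± 0.344 in rev (SD, n = 4). By library it ran from 1.14 to 2.15 at 0h, from 0.558 to 0.935 at 4h and from 1.20 to 1.96 in rev, so the 4h libraries did not overlap those of 0h or rev. In every group both clone 8 libraries lay above both clone 4 libraries, so the SD includes a difference between clones. At 0h the ratio was 1.14 and 1.23 in clone 4 and 2.14 and 2.15 in clone 8. The ratio's size depends on the length used: with the longest transcript it ran from 0.738 to 1.39 at 0h, 0.362 to 0.607 at 4h and 0.776 to 1.27 in rev, and whether Klf4 or Klf5 was the more abundant at 0h and in rev was not settled. The ratio of Klf2 to Klf5 was 4.68 ± 0.577 at 0h, 2.63 ± 0.643 at 4h and 6.16 ± 0.211 in rev. These ratios are given as a description, with no test.

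**Figure D3:**
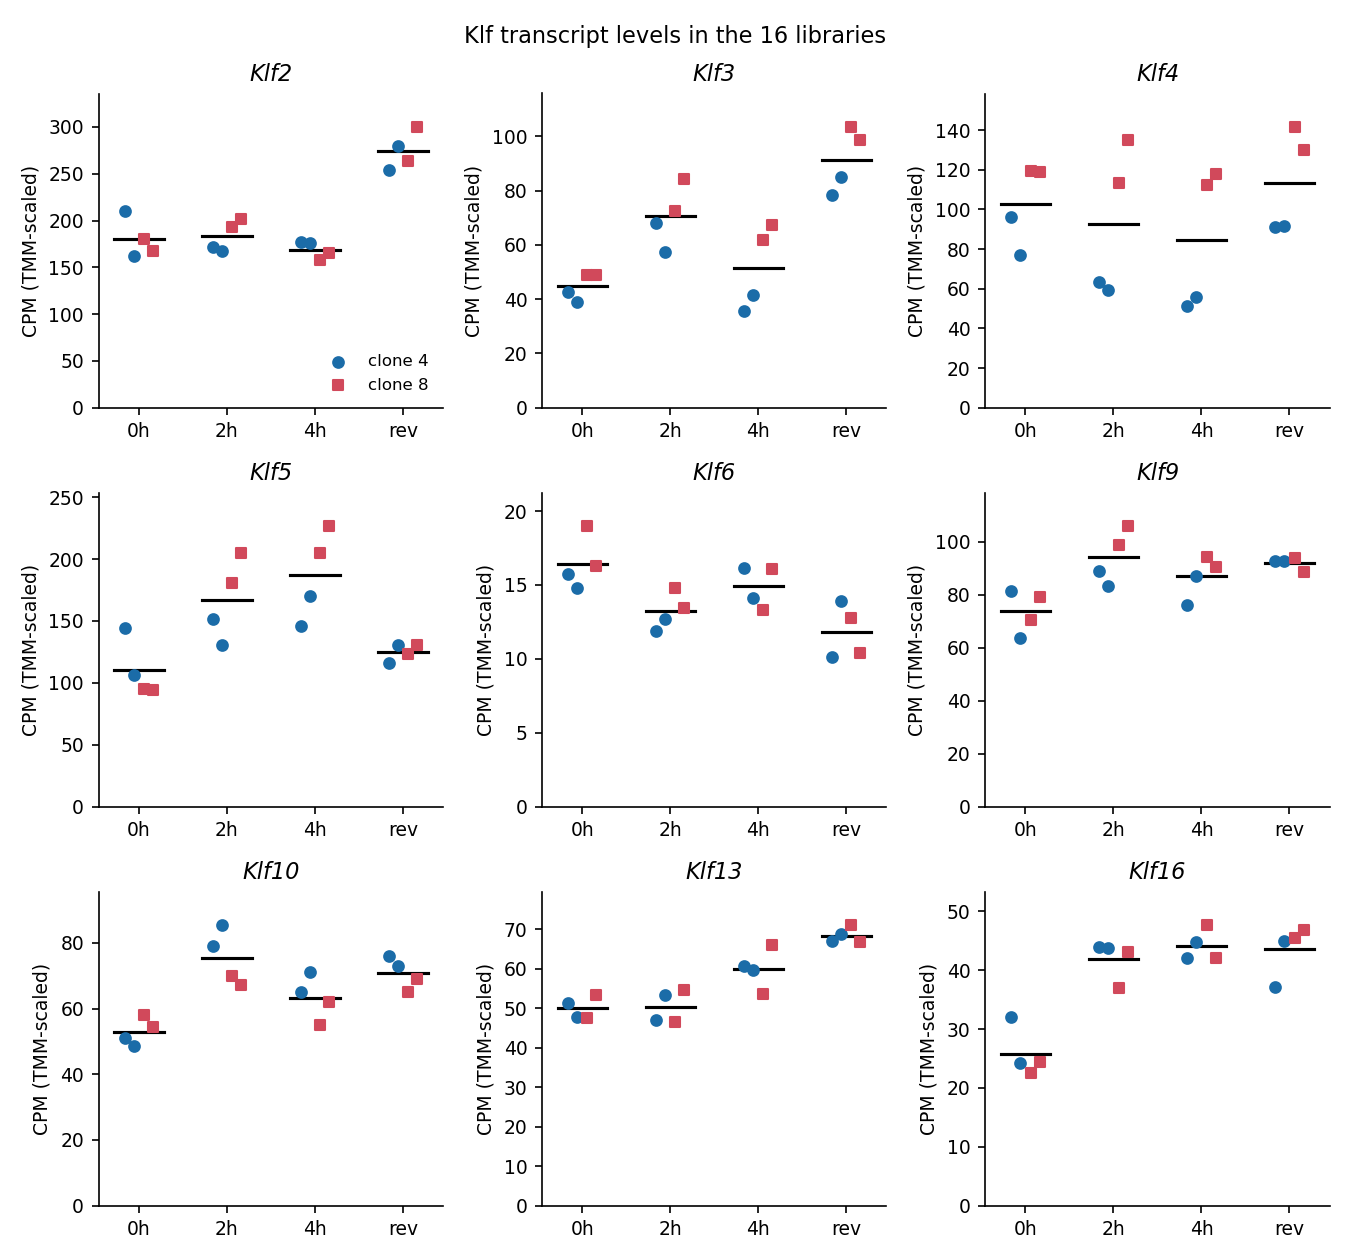
TMM-scaled CPM (y axis) of each member in the 16 libraries by group (x axis); circles are clone 4, squares clone 8 and bars the mean of 4 libraries. The 4 rev libraries of Klf2 lie between 254 and 299.7 CPM, above all others, and the clone 8 squares of Klf4 lie above the clone 4 circles in each group.

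Under TMM scaling and over both clones, Klf3, the CtBP-dependent repressor, had the largest change of the 9 members and went up, down and up again. Klf3 (ENSMUSG00000029178, chromosome 5, 64803388 to 64832901, plus strand) measured 42.6, 39.1, 48.9 and 48.7 CPM at 0h and 68.2, 57.4, 72.5 and 84.1 CPM at 2h. It measured 35.7, 41.7, 61.7 and 67.4 CPM at 4h and 78.5, 84.9, 103 and 98.7 CPM in rev. The 2h and rev libraries lay above every 0h library, and the clone 4 libraries at 4h were within or below the 0h range. Klf3 rose by 0.67 at 2h (SE 0.09, adjusted p = 1.10e-06), fell by 0.50 from 2h to 4h (SE 0.09, adjusted p = 2.77e-04) and stood at 0.17 at 4h against 0h (SE 0.09, adjusted p = 0.169). It rose by 0.87 from 4h to rev (SE 0.09, adjusted p = 8.68e-09), and rev against 0h gave 1.04 (SE 0.09, adjusted p = 3.43e-10), a 2.06-fold increase. Without clone 4 replicate 1 at 4h, Klf3 was called higher at 4h, at 0.27 (adjusted p = 0.0272), and without clone in the model the change from 2h to 4h was not called (-0.50, adjusted p = 0.154). With library size alone as the scaling, Klf3 kept its call in rev against 0h (0.71, adjusted p = 0.0376) and lost those at 2h (0.66, adjusted p = 0.117), from 2h to 4h (-0.40, adjusted p = 0.995) and from 4h to rev (0.45, adjusted p = 0.147). The antisense gene Gm20033 overlaps 404 bases of Klf3 exon; it held 0 to 5 counts per library, and the strand setting of the counting is not given in the sources used here.

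The rise from 4h to rev was shared by Klf2, Klf3 and Klf4, so their promoter windows are shown. Each covers 250 bases before and 50 after the RefSeq start site (GRCm38.p6), printed 5′ to 3′ on the gene's strand. Capitals mark CACCC and GGGCGG on either strand, the kinds of sequence that KLF and SP proteins bind. The windows are chr8:72318812-72319111 (plus strand) for Klf2, chr5:64803271-64803570 (plus strand) for Klf3 and chr4:55532426-55532725 (minus strand) for Klf4.
Klf2: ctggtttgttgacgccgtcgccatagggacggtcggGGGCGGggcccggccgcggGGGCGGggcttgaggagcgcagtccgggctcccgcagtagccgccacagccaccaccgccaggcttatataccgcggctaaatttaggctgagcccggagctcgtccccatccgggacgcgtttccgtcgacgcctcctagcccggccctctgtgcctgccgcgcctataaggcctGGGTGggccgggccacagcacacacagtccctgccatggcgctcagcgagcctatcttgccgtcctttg
Klf3: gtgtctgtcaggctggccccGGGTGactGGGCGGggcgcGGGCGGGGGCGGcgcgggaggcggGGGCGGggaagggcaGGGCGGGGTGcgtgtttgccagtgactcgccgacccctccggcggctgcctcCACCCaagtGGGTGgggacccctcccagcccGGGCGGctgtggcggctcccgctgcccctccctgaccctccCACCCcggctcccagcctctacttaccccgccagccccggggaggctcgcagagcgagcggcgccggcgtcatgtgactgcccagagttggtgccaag
Klf4: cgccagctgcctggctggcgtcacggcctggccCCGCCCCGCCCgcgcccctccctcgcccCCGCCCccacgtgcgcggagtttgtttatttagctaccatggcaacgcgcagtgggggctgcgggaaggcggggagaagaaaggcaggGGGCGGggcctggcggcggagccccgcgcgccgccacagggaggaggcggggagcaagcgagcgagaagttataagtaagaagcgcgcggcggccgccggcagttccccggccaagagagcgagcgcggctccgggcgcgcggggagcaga
The Klf2 window held 1 CACCC and 2 GGGCGG, the Klf3 window 5 and 6, and the Klf4 window 0 and 4; in Klf3 and in Klf4 neighbouring matches share a base. Over 32544 windows of the same length, 57.7% held CACCC and 35.9% GGGCGG. GC content was 69.3% for Klf2, 76.7% for Klf3 and 74.3% for Klf4, against a median of 53.0% over all windows, so GC-rich letters are common in them by base composition. None of the 3 windows held a CArG box (in 1.64% of all windows), GGAAGT (23.7%), TGACGTCA (1.8%), TGANTCA (7.79%), TTCNNNGAA (8.33%) or GCGTGGGCG (0.618%), searched on both strands. Windows were matched for 6 of the 9 members: those of Klf6, Klf9 and Klf13 held 0, 1 and 1 CACCC and 1, 0 and 3 GGGCGG, Klf6 held 1 GGAAGT, and Klf9 held 1 TGANTCA and 1 TTCNNNGAA. Klf5, Klf10 and Klf16 were not matched.

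The 4 members that recruit SIN3 were called higher in rev than at 0h under TMM scaling; Klf2 and Klf3 were called as well, 6 of 9 members, where 12.4% of all tested genes were. All 4 calls were lost under library size alone, at 0.012 for Klf9 (adjusted p = 0.977), 0.066 for Klf10 (adjusted p = 0.868), 0.13 for Klf13 (adjusted p = 0.732) and 0.43 for Klf16 (adjusted p = 0.233). Klf9, Klf10 and Klf16 were called higher already at 2h and Klf13 was not. Klf16 (ENSMUSG00000035397, chromosome 10, 80567124 to 80577321, minus strand) measured 32.0, 24.3, 22.5 and 24.4 CPM at 0h and 44.0, 43.8, 37.0 and 43.2 CPM at 2h. It measured 42.1, 44.9, 47.7 and 42.1 CPM at 4h and 37.2, 45.0, 45.4 and 46.9 CPM in rev. No library of the later groups overlapped the 0h libraries, and the 2h, 4h and rev libraries overlapped each other. Klf16 was higher by 0.72 at 2h (SE 0.10, adjusted p = 9.54e-07), 0.80 at 4h (SE 0.10, adjusted p = 7.73e-08) and 0.76 in rev (SE 0.10, adjusted p = 1.37e-06) against 0h. Rev against 4h gave -0.04 (SE 0.09, adjusted p = 0.801).

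Klf10 was first described as a TGF-beta inducible early gene, and Klf9 is known for its induction by thyroid and glucocorticoid hormones. Over both clones together, both genes rose at 2h and were also called higher at 4h. Their changes from 2h to 4h did not pass the test, at -0.23 for Klf10 (SE 0.08, adjusted p = 0.0708) and -0.13 for Klf9 (SE 0.08, adjusted p = 0.372). With only the 2 groups compared, the fall of Klf10 was called (-0.25, adjusted p = 0.0202). Klf10 (ENSMUSG00000037465, chromosome 15, 38291463 to 38300706, minus strand) measured 51.1, 48.5, 58.1 and 54.3 CPM at 0h, 79.1, 85.4, 69.9 and 67.3 CPM at 2h, 64.9, 71.0, 54.9 and 62.1 CPM at 4h and 76.1, 73.0, 65.1 and 69.0 CPM in rev. The 2h and rev libraries lay above all 0h libraries, while the 4h and 0h libraries overlapped. Its log2 fold change against 0h was 0.48 at 2h (SE 0.08, adjusted p = 4.64e-05), 0.24 at 4h (SE 0.08, adjusted p = 0.0223) and 0.41 in rev (SE 0.08, adjusted p = 6.61e-04). Klf9 (ENSMUSG00000033863, chromosome 19, 23141226 to 23168134, plus strand) measured 81.5, 63.7, 70.6 and 79.1 CPM at 0h, 88.9, 83.2, 98.7 and 106 CPM at 2h, 76.2, 87.1, 94.0 and 90.5 CPM at 4h and 92.7, 92.5, 93.6 and 88.3 CPM in rev. As for Klf10, the 2h and rev libraries lay above all 0h libraries and the 4h libraries did not. Its log2 fold change against 0h was 0.37 at 2h (SE 0.08, adjusted p = 7.83e-04), 0.24 at 4h (SE 0.08, adjusted p = 0.0178) and 0.34 in rev (SE 0.08, adjusted p = 0.00284). Within clones, Klf10 at 4h gave 0.45 (SE 0.10, adjusted p = 0.00131) in clone 4 and 0.05 (SE 0.10, adjusted p = 0.759) in clone 8. Klf9 at 4h gave 0.19 (SE 0.11, adjusted p = 0.214) in clone 4 and 0.30 (SE 0.11, adjusted p = 0.0436) in clone 8. At 2h Klf9 gave 0.28 (SE 0.11, adjusted p = 0.145) in clone 4 and 0.45 (SE 0.10, adjusted p = 0.00183) in clone 8. The differences between the clones were not called. The 4h calls of both were lost without clone in the model (Klf9 0.24, adjusted p = 0.0745; Klf10 0.26, adjusted p = 0.0602) and under library size alone (Klf9 0.34, adjusted p = 0.447; Klf10 0.33, adjusted p = 0.463). That of Klf10 was lost as well without the filter on low counts (0.25, adjusted p = 0.0574) and with the share of the 8 abundant models as a covariate (0.22, adjusted p = 0.0574). The calls of both rested on single libraries. Klf10 was no longer called without 0h clone 4 replicate 1 (0.21, adjusted p = 0.0620), 0h clone 4 replicate 2 (0.17, adjusted p = 0.155) or 4h clone 4 replicate 2 (0.20, adjusted p = 0.0966). Klf9 was no longer called without 0h clone 4 replicate 2 (0.19, adjusted p = 0.0973), 0h clone 8 replicate 1 (0.21, adjusted p = 0.0610), 4h clone 4 replicate 2 (0.22, adjusted p = 0.0661) or 4h clone 8 replicate 1 (0.22, adjusted p = 0.0556).

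Klf13, known as a regulator of the chemokine gene Ccl5 in T cells, did not pass the test at 2h and, under TMM scaling, was higher from 4h on. Klf13 (ENSMUSG00000052040, chromosome 7, 63886351 to 63938915, minus strand) measured 47.6 to 53.5 CPM at 0h, 46.5 to 54.6 CPM at 2h, 53.5 to 66.0 CPM at 4h and 66.7 to 71.1 CPM in rev. The rev libraries lay above all others, by a small margin over the highest 4h library. The log2 fold change against 0h was -0.0014 at 2h (SE 0.08, adjusted p = 0.995), 0.26 at 4h (SE 0.08, adjusted p = 0.0110) and 0.45 in rev (SE 0.08, adjusted p = 9.18e-05). From 2h to 4h it was 0.26 (SE 0.08, adjusted p = 0.0370), and rev against 4h gave 0.19 (SE 0.08, adjusted p = 0.0886). The call from 2h to 4h was lost without any 1 of 5 libraries (2h clone 4 replicate 1, 2h clone 8 replicate 1, and 4h clone 4 replicate 1, clone 4 replicate 2 and clone 8 replicate 2), where the value was 0.22 to 0.26 with an adjusted p of 0.0845 to 0.159. It was also lost without clone in the model (0.26, adjusted p = 0.132), without the filter on low counts (0.23, adjusted p = 0.232), with the share of the 8 abundant models as a covariate (0.24, adjusted p = 0.0672) and under library size alone (0.35, adjusted p = 0.995). The call at 4h against 0h was likewise lost under library size alone (0.36, adjusted p = 0.406).

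Klf6, a widely expressed factor that belongs with Klf7 and is described as a tumour suppressor, was the scarcest member and the only one lower in rev than at 0h. Klf6 (ENSMUSG00000000078, chromosome 13, 5861482 to 5870394, plus strand) measured 15.8, 14.8, 19.0 and 16.2 CPM at 0h, 11.9, 12.7, 14.8 and 13.4 CPM at 2h, 16.2, 14.1, 13.3 and 16.1 CPM at 4h and 10.1, 13.9, 12.8 and 10.4 CPM in rev. The rev libraries lay below every 0h library. Klf6 was lower in rev against 0h by -0.47 (SE 0.13, adjusted p = 0.00842), and the values at 2h (-0.31, SE 0.12, adjusted p = 0.0603) and at 4h (-0.12, SE 0.12, adjusted p = 0.456) against 0h did not pass. With the share of the 8 abundant models as a covariate, the 2h value was called (-0.32, adjusted p = 0.0490). Rev against 4h gave -0.35 (SE 0.13, adjusted p = 0.0638), which was called without 4h clone 8 replicate 1 (-0.42, adjusted p = 0.0357) or without rev clone 4 replicate 2 (-0.45, adjusted p = 0.0279). Under library size alone rev against 0h gave a larger fall, at -0.78 (adjusted p = 0.0354). Without rev clone 4 replicate 1 the call against 0h was lost (-0.38, adjusted p = 0.0616).

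Between the clones, Klf4 and Klf3 differed in level. Over the 4 groups, Klf4 was higher in clone 8 than in clone 4 by 0.79 (SE 0.07, adjusted p = 1.07e-10) and Klf3 by 0.40 (SE 0.06, adjusted p = 9.68e-06). These were 2 of 9 members, where 29.1% of all tested genes differed between the clones in either direction. The call of Klf3 was lost under library size alone, at 0.15 (adjusted p = 0.507). Klf5 (0.15, SE 0.08, adjusted p = 0.186) and Klf10 (-0.12, SE 0.06, adjusted p = 0.120) were not called, but Klf5 was called without 0h clone 4 replicate 1 (0.23, adjusted p = 0.00809), and Klf10 without 0h clone 4 replicate 2 (-0.16, adjusted p = 0.0452) or 0h clone 8 replicate 1 (-0.15, adjusted p = 0.0467).

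Under TMM scaling the rise of Klf5 was larger in clone 8. Its log2 fold change at 2h was 1.02 (SE 0.11) in clone 8 and 0.21 (SE 0.12) in clone 4, a difference of 0.81 (SE 0.16, adjusted p = 0.0241 in a model with 8 group and clone cells). At 4h it was 1.18 (SE 0.12) in clone 8 and 0.36 (SE 0.11) in clone 4, a difference of 0.83 (SE 0.16, adjusted p = 0.00999). Klf5 was the only member called in these tests of the difference, which called 0.0901% of all genes at 2h, 0.311% at 4h and 0.00819% for rev against 4h, where no member was called, with 3 (Klf3, Klf4 and Klf5) at an unadjusted p under 0.05 and 0 called by DESeq2. The clones' 0h libraries differed as well, at 144 and 106 CPM in clone 4 against 95.2 and 94.6 CPM in clone 8, while their rev libraries lay together at 116 to 131 CPM. Without 0h clone 4 replicate 1, the difference was 0.60 at 2h (adjusted p = 0.336) and 0.61 at 4h (adjusted p = 0.191). At 2h the call was also lost without 0h clone 8 replicate 2 (0.81, adjusted p = 0.182), 2h clone 4 replicate 1 (0.96, adjusted p = 0.0841), 2h clone 4 replicate 2 (0.73, adjusted p = 0.113) or 2h clone 8 replicate 2 (0.74, adjusted p = 0.250). At 4h it was also lost without 0h clone 8 replicate 2 (0.82, adjusted p = 0.0539), 4h clone 4 replicate 1 (0.73, adjusted p = 0.115) or 4h clone 8 replicate 2 (0.76, adjusted p = 0.117), and with the share of the 8 abundant models as a covariate (0.73, adjusted p = 0.526). Under library size alone neither difference was called, at 0.73 (SE 0.40, adjusted p = 0.999997) at 2h and 0.21 (SE 0.40, adjusted p = 0.691) at 4h.

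No difference between the clones in the response of Klf4 passed the test. At 4h against 0h the difference of 0.63 became, under library size alone, 0.0040 (SE 0.40, adjusted p = 0.995), and with the 8 abundant models removed it was 0.64 and called (adjusted p = 0.0464). From 4h to rev Klf4 gave 0.77 (SE 0.11) in clone 4 and 0.25 (SE 0.11) in clone 8, a difference of -0.52 (SE 0.15, adjusted p = 0.587). The 4h difference in Klf4 was called when 1 of 4 libraries was left out, namely 0h clone 4 replicate 2 (0.79, adjusted p = 0.0148), 2h clone 8 replicate 1 (0.63, adjusted p = 0.0463), 2h clone 8 replicate 2 (0.64, adjusted p = 0.0413) or 4h clone 4 replicate 2 (0.70, adjusted p = 0.0392). Klf3 at 4h (-0.07 in clone 4, 0.40 in clone 8, adjusted p of the difference 0.212) and Klf10 at 2h (0.72 in clone 4, 0.29 in clone 8, adjusted p of the difference 0.311) were not called.

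**Figure D4:**
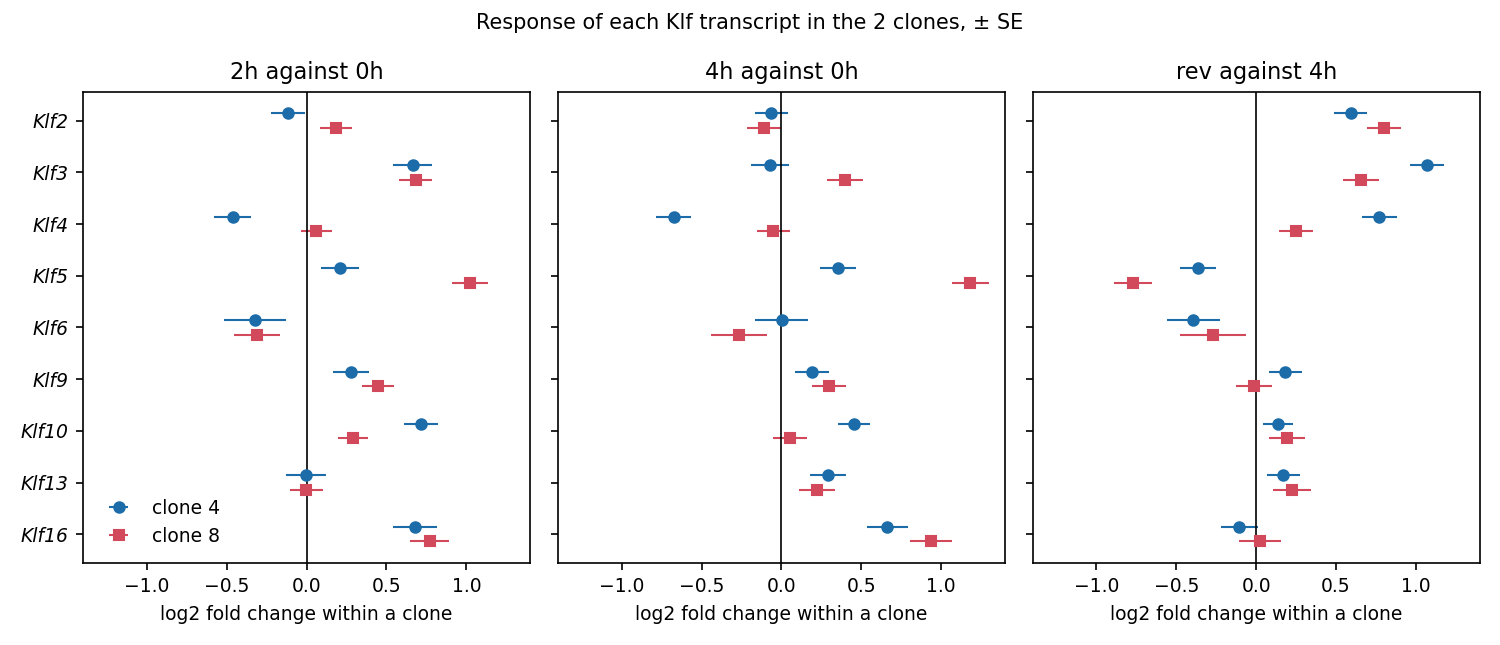
Log2 fold change (x axis) of each member (rows) within clone 4 (circles) and clone 8 (squares), with the SE as a bar, in 3 panels, from left 2h and 4h each against 0h and then rev against 4h. Klf5 lies at 1.02 and 1.18 in clone 8 against 0.21 and 0.36 in clone 4 at 2h and 4h.

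Of 17 further genes of the KLF and SP family, 10 were tested, among them Klf8, which was lower at 2h and 4h than at 0h. At 2h against 0h 2 were higher and 2 lower, at 4h 2 were higher and 3 lower, from 2h to 4h 0 were higher and 1 lower, from 4h to rev 2 were higher and 0 lower, and in rev against 0h 1 was higher and 0 lower. Over all tested genes 11.4% were higher and 9.68% lower at 2h, 17.2% and 16.8% at 4h, 3.8% and 3.52% from 2h to 4h, 7.93% and 8.43% from 4h to rev, and 12.4% and 9.86% in rev against 0h; with so few genes, nothing particular to this list or those below is read from the counts. The list's median log2 fold change was -0.11 at 4h and 0.21 from 4h to rev. Klf8, a CtBP-binding relative of Klf3, averaged 44.1 ± 4.64 CPM before induction, 36.2 ± 0.903 after 2 h, 27.97 ± 3.94 after 4 h and 42.5 ± 2.97 in rev. It fell by 0.67 at 4h against 0h (SE 0.09, adjusted p = 5.75e-07) and rose by 0.65 from 4h to rev (SE 0.09, adjusted p = 4.70e-06). Klf15 was lower at 4h (-0.68, SE 0.22, adjusted p = 0.0153), and Klf11, the nearest relative of Klf10, was higher in rev than at 4h (0.52, SE 0.13, adjusted p = 0.00465). Sp8 was lower at 2h (-1.13, SE 0.35, adjusted p = 0.0187) and at 4h (-1.63, SE 0.40, adjusted p = 0.00194) at levels of 2.31 CPM or less. Sp4 (0.82, SE 0.16, adjusted p = 2.52e-04) and Sp5, a Wnt target (0.45, SE 0.13, adjusted p = 0.0114), were higher at 2h, and Sp2 was higher in rev against 0h (0.35, SE 0.11, adjusted p = 0.0223). Klf1, Klf12, Klf14, Klf17, Sp6, Sp7 and Sp9 were not tested, with at most 13 counts in a library.

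Of 17 genes for cofactors and for turnover of KLF proteins, 16 were tested. At 2h 3 were higher and 1 lower, at 4h 7 were higher and 3 lower against 0h, from 2h to 4h 2 were higher and 1 lower, from 4h to rev 0 were higher and 1 lower, and in rev against 0h 5 were higher and 2 lower. At 4h, 17.2% of all tested genes were higher and 16.8% lower, and the list's median log2 fold change was 0.18. Ctbp2, a corepressor bound by Klf3, rose by 0.44 at 2h (SE 0.07, adjusted p = 1.74e-05) and 0.76 at 4h (SE 0.07, adjusted p = 1.11e-10) and fell by 0.41 in rev against 4h (SE 0.07, adjusted p = 5.65e-05). The acetyltransferases Ep300 and Crebbp rose by 0.43 (SE 0.08, adjusted p = 7.65e-05) and 0.39 (SE 0.09, adjusted p = 0.00222) at 2h. Btrc, the ubiquitin ligase subunit that recognises ERK-phosphorylated Klf4, fell by 0.27 at 2h (SE 0.09, adjusted p = 0.0375) and by 0.66 at 4h (SE 0.10, adjusted p = 3.25e-06), and Sin3a rose between 2h and 4h by 0.24 (SE 0.07, adjusted p = 0.0366).

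Of 6 genes of the ERK5 and MEF2 route, which is known to induce Klf2 and Klf4 in other cells, 4 were tested and 1 was called in any comparison: Mapk7, the gene for ERK5, was lower at 4h (-0.35, SE 0.13, adjusted p = 0.0333). At 4h, 16.8% of all tested genes were lower. Mef2b and Mef2c had 0 counts in every library. From 4h to rev, where Klf2 and Klf4 rose, Mapk7 gave 0.28 (adjusted p = 0.145), and the other 3 lay between -0.14 and 0.14 and were not called.

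The 12 partners in the naive network were all tested and moved in both directions. At 2h 5 were higher and 2 lower, at 4h 6 were higher and 3 lower against 0h, from 2h to 4h 0 were higher and 3 lower, from 4h to rev 4 were higher and 4 lower, and in rev against 0h 4 were higher and 0 lower. At 4h, 17.2% of all tested genes were higher and 16.8% lower, and from 4h to rev 7.93% and 8.43%; the list's median log2 fold change was 0.16 at 4h and 0.10 from 4h to rev. Prdm14 and Nanog moved in the directions of Klf4: Prdm14 was lower by -1.27 at 4h (SE 0.13, adjusted p = 9.95e-10) and higher by 1.06 in rev against 4h (SE 0.13, adjusted p = 3.48e-07), and Nanog by -0.68 (SE 0.07, adjusted p = 4.03e-09) and 0.66 (SE 0.07, adjusted p = 2.45e-08). Nr5a2, a nuclear receptor that activates Oct4, rose by 0.58 at 4h (SE 0.07, adjusted p = 6.95e-08), and Zfp42 was lower in rev than at 4h (-0.44, SE 0.09, adjusted p = 6.09e-04), the directions of Klf5. Sall4 was higher in rev than at 0h by 0.43 (SE 0.09, adjusted p = 4.56e-04).

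The genes most like each member over the 16 libraries were ranked among 8645 genes with a mean of at least 5 CPM, by Pearson correlation of log2 CPM after the clone mean was subtracted. The libraries share group, depth and composition, and these values describe likeness only. The gene most like Klf2 was Prrt3 (r 0.962), followed by Tmppe (0.923) and Baz2a (0.903). For Klf3 they were Aff1 (0.926), Ulk1 (0.915) and Fbrsl1 (0.910), and for Klf4 Tunar (0.927), Zbtb39 (0.923) and Zmiz1 (0.915). Klf5 was nearest to Slain2 (0.942), Rpl29 (0.938) and Slc35e1 (0.922). The highest value of all was that of Klf16 with Cdc42se1 (0.977), followed by Actb (0.958) and Jup (0.948). The nearest genes of the remaining members were Dnajc3 for Klf6 (0.884), Gatad2b for Klf9 (0.909), Ints6 for Klf10 (0.907) and Cit for Klf13 (0.922). When the clone mean was kept, 2 of the 3 named genes remained for Klf2, Klf3 and Klf5, 1 for Klf4 and 0 for Klf16. Over means of the 8 group and clone cells in place of libraries, 2 of the 3 nearest genes remained for Klf2, 1 for Klf5, Klf10 and Klf13, and 0 for Klf3, Klf4, Klf6, Klf9 and Klf16, so the names depend on how libraries were combined.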

How the data were processed

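The authors deposited raw read counts per Ensembl gene for 16 libraries of ribosomal RNA-depleted total RNA (NEBNext kits, per the labels' protocols). Per the submitters' processing notes, which name no roles, the build was mm10 and the tools included STAR 2.5.3a and bcl2fastq 2.19.1; the counting tool, its annotation and its strand setting are not given in the sources used here. Of the 52636 identifiers, 52489 matched GENCODE M21 (GRCm38), which gave symbols, positions and exon lengths. Promoter windows are from RefSeq (GRCm38.p6).

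The tests used edgeR 4.0.16 under R 4.3.3: filterByExpr (12215 genes left), TMM factors, and a quasi-likelihood model of group and clone over all 16 libraries, with two-sided contrasts and Benjamini-Hochberg adjustment over all tested genes at 0.05. A model of 8 group and clone cells gave differences between clones. The common biological coefficient of variation was 0.0795. Each SE is the log2 fold change over the root of its F statistic. Groups and clones were taken from the sample titles. The members, the gene lists and the tests were chosen with earlier results of these data known. All members are named; of each other list, at most the 3 called genes with the largest change per comparison; and for likeness, the 3 nearest genes. Naming only the nearest gene of some members was decided after seeing values. None of the 8 pairs of replicates of 1 clone and group agreed within sampling noise.

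Alternatives were RLE size factors, library size alone, no filter on low counts, a filter at a mean of 1 CPM, no clone covariate, a replicate block, only the 2 groups compared, a 2-fold threshold, DESeq2 1.42.0, the 8 most abundant models removed or their share as a covariate, each library left out, the longest transcript for levels, and uncentred or cell means for likeness. The pipeline was tested on simulated data.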

Additional observations from a re-analysis of the deposited data

Results flagged for a closer look

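Klf16 at 2h had 1 library apart from the others: clone 8 replicate 1 measured 37.0 CPM, against 43.2 to 44.0 CPM in the other 3, a gap above Dixon's 95% critical value for 4 samples. It was the only such case among 36 groups of 4 libraries (9 genes in 4 groups), where chance gives about 1 in 20. The library still lay above the highest 0h library (32.0 CPM).

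The response of Klf5 differed between the clones by 0.81 (log2, SE 0.16, adjusted p = 0.0241, edgeR interaction contrast) at 2h against 0h and by 0.83 (SE 0.16, adjusted p = 0.00999) at 4h against 0h, larger in clone 8 in both. Leaving out 0h clone 4 replicate 1 lowered the differences to 0.60 and 0.61, and under library size alone they were 0.73 and 0.21; they were not called in either case.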

How the results depend on the processing

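Over 1644 values of single members under alternative settings, 1516 kept their direction and their side of the threshold, 79 lost a call, 16 gained one and 33 changed sign, and no called value changed sign. The causes were not tested, except that a stricter threshold lowers a count by construction. Under library size alone the members called were 0 higher at 2h, 2 higher and 0 lower at 4h, 0 and 0 from 2h to 4h, 0 higher and 2 lower from 4h to rev, 1 higher in rev against 0h, 1 higher in clone 8, and 0 for the clone difference at 2h and at 4h. With a 2-fold threshold they were 0 in every direction of the 5 comparisons of groups except 1 higher in rev against 0h. Without clone in the model they were 3 higher and 0 lower at 4h, and 0 and 0 from 2h to 4h. Without the low-count filter 0 were higher from 2h to 4h, and with only the 2 groups compared 2 were lower there (Klf10 besides Klf3). With the share of the 8 abundant models as a covariate, 1 was lower at 2h (Klf6, -0.32, adjusted p = 0.0490), 0 were higher from 2h to 4h and 0 differed between clones at 4h, with 3 higher and 1 lower from 4h to rev. With those models removed, 2 differed between clones at 4h (Klf4 besides Klf5). Without the library of highest share and the library of lowest depth, an alternative chosen after seeing the data, 0 differed between clones at 2h (Klf5, 0.75, adjusted p = 0.101) and the other counts moved by less than 1.5 times. Leaving out each library in turn gave 5 higher and 0 lower at 2h, 3 to 6 higher and 1 lower at 4h, 0 to 1 higher and 1 lower from 2h to 4h, 3 higher and 1 to 2 lower from 4h to rev, 6 to 8 higher and 0 to 1 lower in rev against 0h, 2 to 4 higher and 0 to 1 lower in clone 8, and 0 to 1 and 0 to 2 for the clone differences at 2h and 4h.

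Changes of sign concerned values that were not called. For Klf13 at 2h they were 1.75e-04 with RLE factors, 0.011 with library size alone, 0.032 without a filter, 0.0034 without clone, 0.0010 with the replicate block, 0.0046 without the abundant models, and -0.062 to 0.047 with single libraries left out. With single libraries left out, Klf2 ran from -0.0080 to 0.13 at 2h and from -0.13 to 0.011 at 4h, and Klf16 in rev against 4h from -0.088 to 0.060. The clone difference of Klf3 at 2h ran from -0.078 to 0.20, and that of Klf10 in rev against 4h from -0.037 to 0.14. Under library size alone the values were 0.026 for Klf2 at 4h, -0.33, -0.27 and -0.24 for Klf9, Klf10 and Klf13 in rev against 4h, -0.15 and -0.12 for Klf4 and Klf5 in rev against 0h, -0.12 for Klf5 between clones, and -0.059, -0.16 and -0.12 for the clone differences of Klf3 at 2h, Klf3 at 4h and Klf10 in rev against 4h. Without the library of highest share and that of lowest depth, the clone difference of Klf3 at 2h was -0.040.

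Over 12 same-numbered pairs of libraries the mean correlation of deviations was 0.0132 (-0.318 to 0.210), with 4 above 0.1. Pairs among 0h, 2h and 4h gave 0.130 to 0.210 in clone 8 and -0.318 to 0.103 in clone 4. A mean near 0 over such values does not show that the replicate numbers are unpaired, and shared handling was not tested. The fit with the replicate number as a block called 5 members higher at 2h, 5 higher and 1 lower at 4h, and 3 higher and 1 lower from 4h to rev, the counts without it. Klf6 had the lowest counts of the members, with as few as 23 in a library.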
